A study of Saccharomyces cerevisiae with 24 samples.

Results

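The genes described here encode the cytoplasmic translation factors of *Saccharomyces cerevisiae*, the proteins that bring ribosomes to messenger RNA, move them along it and release the finished chain. The rule that chose them uses gene names and no measured value, and 45 of the 6427 genes in the expression tables are members. Earlier results of these data were known when the set was chosen. All 45 passed the filter on low values in every comparison. RNA was sequenced from the haploid strain BY4741, which is MATa and carries *his3*, *leu2*, *met15* and *ura3* mutations by its listed genotype, so control and laser cells share these alleles. Cultures grown in the rich medium YEPD, repeated in triplicate, were divided in PBS into a control portion and a portion exposed to a UV laser for 30 s. Both portions were then inoculated into fresh YEPD, and cells were taken at 0, 15, 30 and 60 min (T0, T15, T30 and T60). This gave 8 groups of 3 libraries, named here by treatment and time. The control portion was kept on ice while the laser portion was spread over tubes, irradiated in a chilled block and combined again, so the light and this handling cannot be told apart in any laser effect below.

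Expression is given as RPKM, the reads of a gene divided by its length and by the depth of its library, as the authors deposited it. Depth recovered from the spacing of low RPKM values was 2558500 to 5422500 reads per library, with a median of 3788500. Transcripts of *LEU2* and *URA3* sat at the lowest listed value of 0.021 in 24 of 24 libraries, and the MATa receptor gene *STE2* had an RPKM of 202 to 916. *HIS3* and *MET17*, the present name of *MET15*, are listed as mutated too, but had an RPKM of 106 to 168 and of 31.2 to 482. Libraries also differed by gene length. Each gene's log2 level was taken against the mean of its own group of 3 libraries. The median of these deviations over 1427 genes with coding sequences under 700 bases, less that of 1319 genes with more than 2000 bases, gave a length trend. It was 0.07 to 0.76 in libraries numbered replicate 1 and -0.60 to -0.26 in those numbered replicate 3. Since each group is centred on itself, the trend compares replicates within a group and not groups. Among the members, *CDC33*, *CAF20*, *SUI1*, *TIF11*, *EFB1*, *HYP2* and *ANB1* are in the short class. Values of this trend are repeated beside some of the results that rest on these genes, and its part was not tested in any of them.

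Translation in yeast starts when eIF4E, eIF4G and the helicase eIF4A load a ribosomal small subunit, with eIF3 and eIF2 carrying the initiator tRNA, onto the capped end of a messenger RNA. The subunit scans to a start codon, which eIF1, eIF1A and eIF5 help to recognise, and eIF5B joins the large subunit. eIF2B recharges eIF2 with GTP, and the kinase Gcn2 blocks this step when amino acids run short, which raises translation of the transcription factor Gcn4. eEF1A brings each aminoacyl-tRNA, eEF2 moves the ribosome by a codon, fungi need eEF3 besides, eIF5A helps at stalling sequences, and eRF1 with eRF3 ends the chain. Yeast keeps a duplicate gene for several of these proteins, some near-identical and some used under different conditions.

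How far the reads of a duplicate pair can be told apart depends on its sequence, so a stretch of a near-identical pair and of a diverged pair is shown. Both stretches are 75 coding bases from the S288C reference R64, with the bases that differ between the copies in capitals. *TEF1* (chromosome XVI, 700594 to 701970, plus strand) and *TEF2* (chromosome II, 477671 to 479047, plus strand), both for eEF1A, differ at 2 of 1377 coding bases, and both differences fall in coding bases 760 to 834. *HYP2* (chromosome V, 85676 to 86149, plus strand), for the eIF5A form made in air, and *ANB1* (chromosome X, 524908 to 525381, minus strand), for the form made when oxygen is low, differ at 43 of 474, and coding bases 259 to 333 are shown.
TEF1: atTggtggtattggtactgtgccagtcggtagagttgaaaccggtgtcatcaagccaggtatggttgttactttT
TEF2: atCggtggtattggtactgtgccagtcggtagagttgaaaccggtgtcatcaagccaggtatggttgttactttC
HYP2: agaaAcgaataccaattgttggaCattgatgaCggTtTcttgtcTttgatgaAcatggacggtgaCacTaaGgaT
ANB1: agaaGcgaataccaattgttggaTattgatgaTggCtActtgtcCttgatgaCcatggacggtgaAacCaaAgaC
Of all windows of this length in the coding sequence, 88.7% were identical between *TEF1* and *TEF2*, 87.8% between the eEF2 genes *EFT1* and *EFT2* and 79.2% between the eIF4A genes *TIF1* and *TIF2*. The level of each gene of these 3 pairs is therefore uncertain, and their sums are reported below. None of the windows was identical between *HYP2* and *ANB1*, nor between the eEF3 genes *YEF3* and *HEF3*, which were 74.5% identical by base, so these copies can be read apart. *EFB1* and *TEF4* each hold an intron with a snoRNA gene, *snR18* and *snR38*, and whether snoRNA reads were counted with the host gene was not stated.

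The members were among the more abundant transcripts of these cells. Their median RPKM, taken for each gene over the 24 libraries, had a median of 324 over the 45 members, against 33.3 over all genes. *TEF2* was highest, with a median RPKM of 14025 and a range of 10641 to 18424, which gave it rank 5 among all genes. *EFB1*, for the exchange factor eEF1Bα that recharges eEF1A, followed at 4365, then *HYP2* at 3233, *YEF3* at 1965, *TEF1* at 1951, *SUI1* (eIF1) at 1895, *EFT2* at 1690, *TIF2* at 1525, *CDC33* (eIF4E) at 1214 and *TIF11* (eIF1A) at 1132. These 10 members exceeded a median RPKM of 1000, and 35 of the 45 exceeded 100. The ranges of neighbours in the order of all 45 overlapped, except between *TEF2* and *EFB1* and between *GCN1* and *GCN2*. At the lower end stood *TIF4632*, for the second eIF4G, at 29.2, *ANB1* at 27.7, *GCN1*, for the ribosome-bound activator of Gcn2, at 21.9, *GCN2* itself at 9.96 and *HEF3*, for the little-used second eEF3, at 5.53. *ANB1* rested on 9 to 101 reads per library and *HEF3* on 26 to 138. For 14 members the highest library exceeded the lowest by less than 2-fold, *GCN4* and *TEF2* among them. The ratio of highest to lowest passed 3 for *EFB1* (3.84), *EAP1* (3.77), *TIF4632* (4.49), *HEF3* (6.6) and *ANB1* (9.47).

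**Figure D1:**
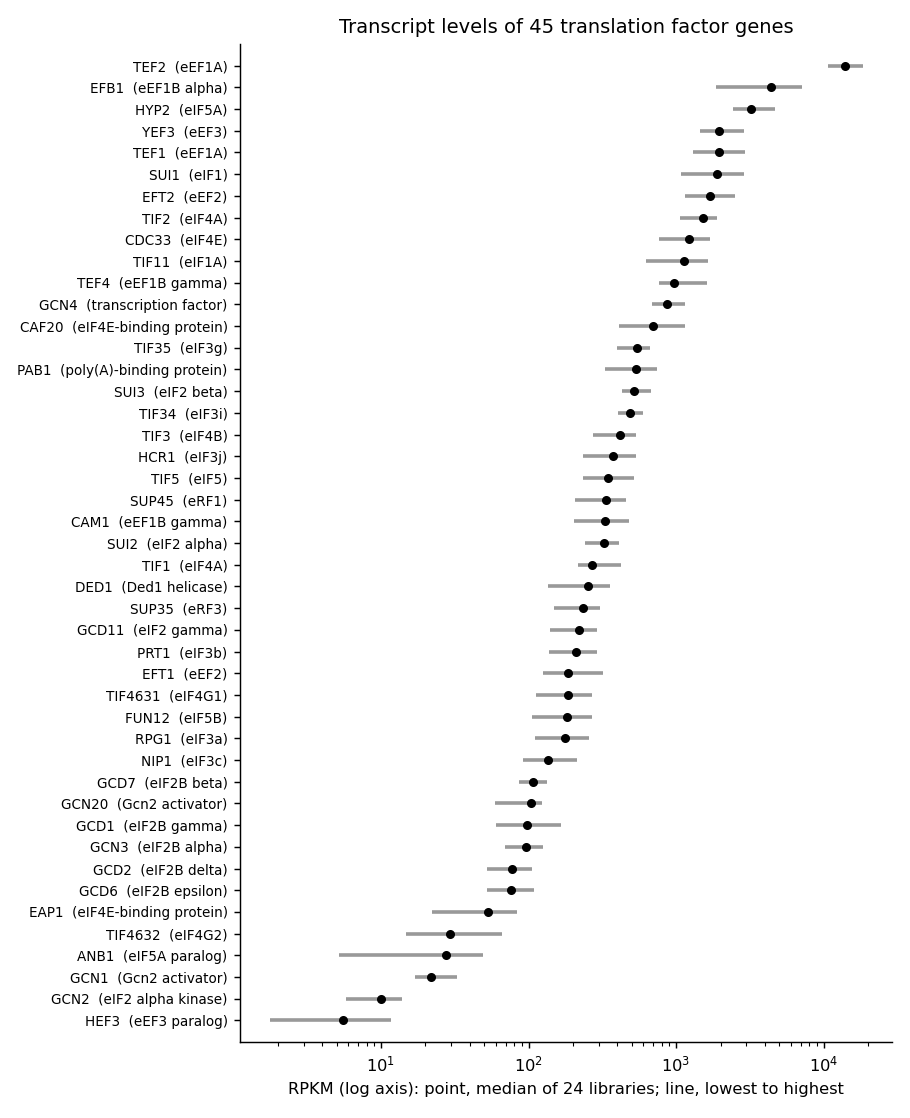
Level of each of the 45 members over 24 libraries, with RPKM on a log axis. Points are medians and lines run from the lowest to the highest library. *TEF2* stands at the top with a median of 14025 and *HEF3* at the bottom with 5.53, and *ANB1* has the widest range, 9.47-fold.

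The members' mean share of the summed RPKM lay between 3.01% and 3.36% in every group, while that of the genes for the ribosome itself ranged more widely. The members took 3.08%, 3.36%, 3.32% and 3.04% of the summed RPKM in control cells at T0, T15, T30 and T60, as means of 3 libraries, and 3.01%, 3.24%, 3.18% and 3.03% in laser cells, with single libraries from 2.15% to 3.94%. *TEF1* plus *TEF2* made up 31.0% to 43.0% of the members' sum in single libraries, so this share leans on 1 pair. The 137 cytoplasmic ribosomal protein genes took 34.3%, 52.4%, 57.3% and 59.7% in control cells and 32.9%, 34.3%, 45.5% and 58.4% in laser cells. Since RPKM is a share, each gene's value also moves when other genes take more or less of a library.

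**Figure D2:**
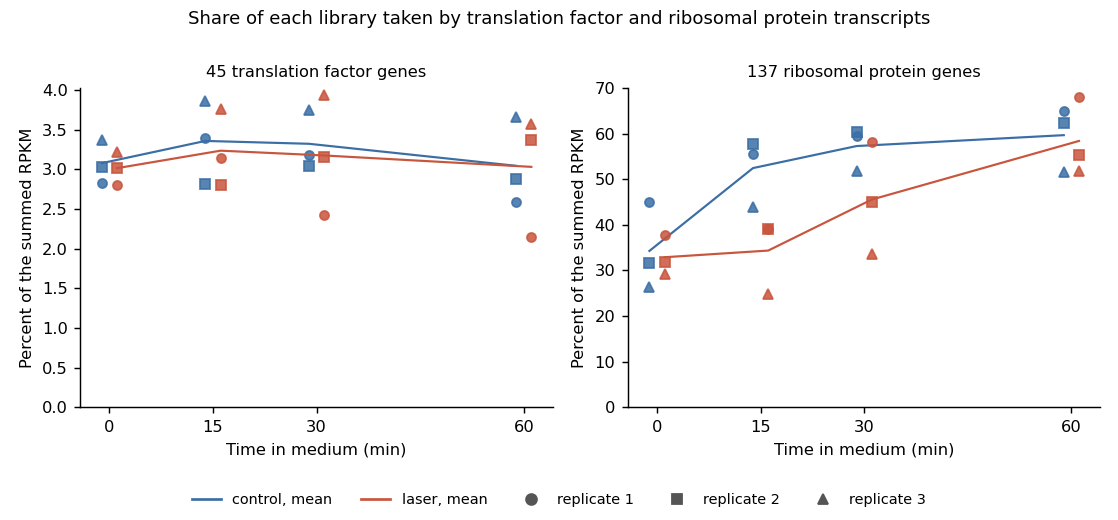
Percent of the summed RPKM taken by the 45 translation factor genes and by the 137 ribosomal protein genes against time in min, with a point per library and lines through the means of 3 control or 3 laser libraries. The mean factor share lay between 3.01% and 3.36% in every group, with single libraries from 2.15% to 3.94%. The mean ribosomal protein share went from 34.3% to 59.7% in control cells, with single libraries of both treatments from 24.9% to 67.9%.

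To ask whether the laser changed the members, laser and control libraries of each time were compared by limma on log2(RPKM + 1). A gene passed at a Benjamini-Hochberg adjusted p under 0.05 over all genes tested. At T15, the time with the most calls over all genes, none of the 45 members passed in either direction. Of all 5887 genes tested 22.6% passed as higher and 4.26% as lower. At an unadjusted p under 0.05, 3 members were higher and 1 was lower, beside 32.1% and 8.53% of all genes. The median log2 fold change of the members was -0.21, that of all genes was 0.29, and 42 of the 45 members lay below the median of all genes.

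The cultures had been divided into a control and a laser portion, so the comparison was also run with the replicate number as a block, which takes each culture against itself. With the block, 2 members were higher and 13 lower at T15, with backgrounds of 41.2% and 12.5% of all genes. The higher members were *EAP1*, whose product competes with eIF4G for eIF4E, with a log2 fold change of 0.59 (blocked adjusted p = 0.00346), and *HCR1*, for the eIF3j subunit, with 0.44 (blocked adjusted p = 0.00506). The 13 lower members included 3 of the 4 genes of the helicase group that unwinds leaders, *TIF1*, *TIF2* and *TIF3* (eIF4B), and 2 of the 4 cap complex genes, *TIF4631* (eIF4G1) and *CDC33*. They also included *CAF20*, whose product likewise binds eIF4E in place of eIF4G, *NIP1* (eIF3c), *TIF11*, *TEF4* (an eEF1Bγ), *EFT2*, *YEF3*, *ANB1* and *SUP45* (eRF1). Their log2 fold changes ran from -0.78 for *ANB1* to -0.26 for *TIF3*. *TIF1* and *TIF2* are near-identical copies, so their calls may rest on shared reads. *TIF11* had a mean RPKM of 847 ± 191 in laser cells against 1277 ± 252 in control cells (SD, n = 3), a log2 fold change of -0.60. The length trend was -0.54 to 0.36 among the laser libraries and -0.46 to 0.42 among the control libraries of this time. As it is centred on each group, it cannot show a length difference between treatments. Its part in the result for this short gene was not tested. None of the 3 genes for eIF2 (*SUI2*, *SUI3*, *GCD11*), the 5 for eIF2B (*GCN3*, *GCD7*, *GCD1*, *GCD2*, *GCD6*) or the 4 of general amino acid control passed in the deposited scaling, with or without the block.

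The members leaned lower at T15 in either scaling, and the number that passed depended on it. A rescaling that sets the typical gene to no change, by median ratios, put 19 members lower and 0 higher, against 13% lower and 15% higher among all genes. With the block and the rescaling together 36 members were lower and 0 higher, beside 24.4% and 23.2% of all genes. The lower members with both then included all 3 genes for eIF2, 4 of the 5 for eIF2B (all but *GCD1*) and 3 of the 4 of general amino acid control (all but *GCN2*). *GCD11*, *GCN3*, *GCD7*, *GCD2*, *GCN1* and *GCN20* were already lower with the rescaling alone. With the rescaling alone the higher genes made up 53.6% of all calls, against 84.1% in the deposited scaling. In the deposited scaling 28 members were lower in all 3 cultures and 8 were higher, where 18.4% of all genes were lower and 54.8% higher. The laser libraries lay wholly below the control libraries for *TIF1*, *TIF11*, *GCD7*, *TEF4*, *YEF3* and *HYP2* and wholly above for *EAP1*, *HCR1* and *HEF3*, where 9.22% of all genes lay wholly below and 34.2% wholly above. *YEF3* had RPKM values of 2635, 1989 and 2865 in control cells and 1832, 1552 and 1942 in laser cells (replicates 1 to 3). Every laser value was below the lowest control value, by a log2 fold change of -0.48 (limma adjusted p = 0.168, blocked 0.00546). *HYP2* had 4197, 4298 and 4202 in control and 3550, 3875 and 3452 in laser cells, which differ by -0.22 on the log2 scale (limma adjusted p = 0.557, blocked 0.0902).

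**Figure D3:**
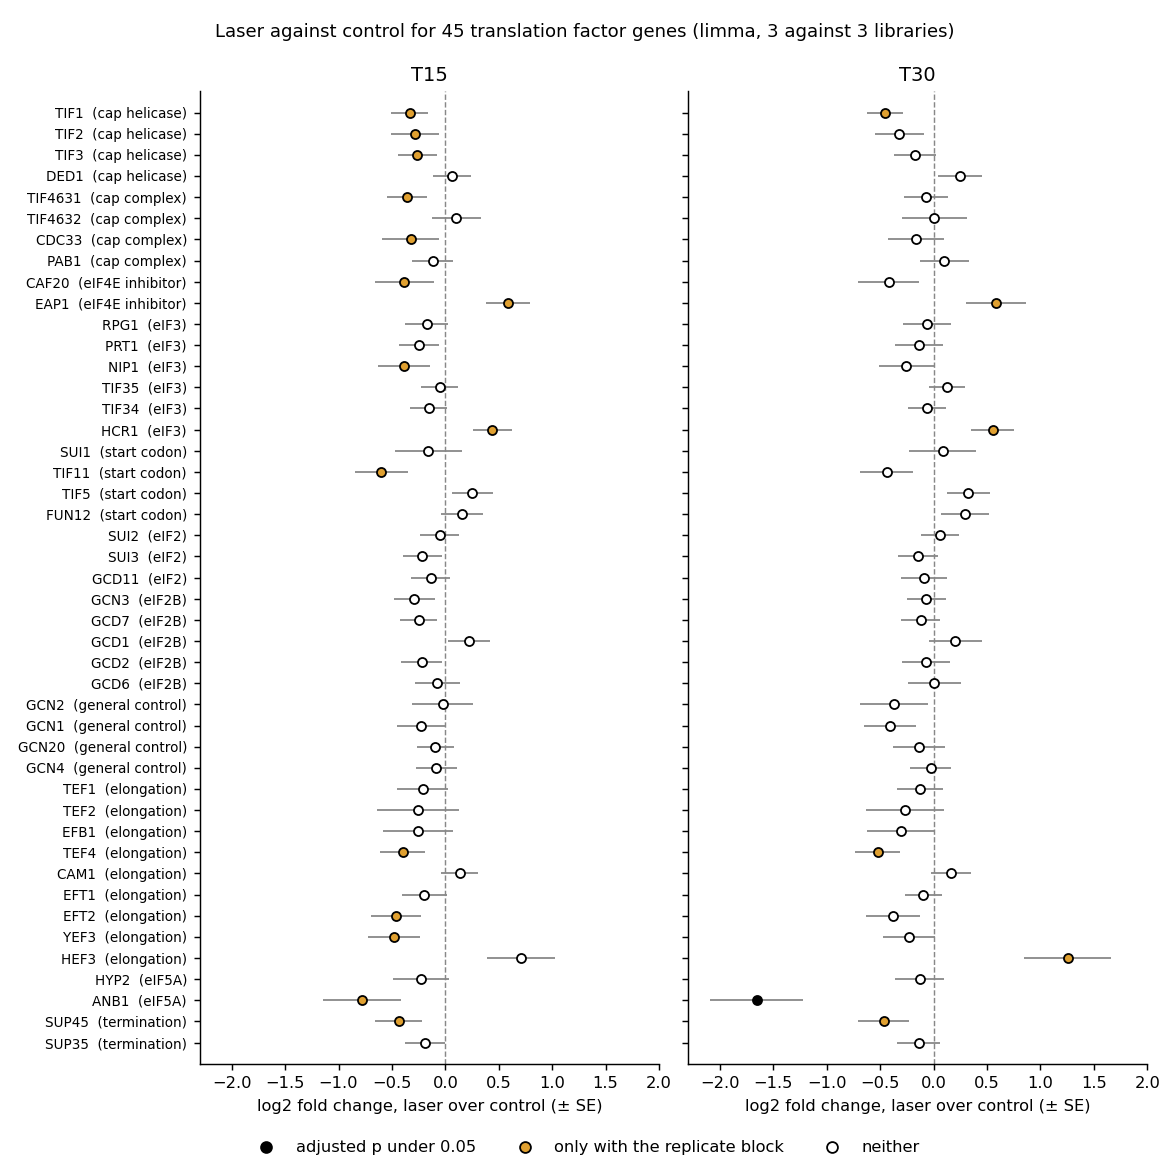
Log2 fold change of laser against control cells with its SE for each member at T15 and at T30, ordered by role. Black points passed limma at adjusted p under 0.05, orange points passed only with the replicate block and white points passed neither. *ANB1* at T30 is the black point, at -1.66, and *HEF3* stands farthest to the right there, at 1.26.

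At T30 *ANB1* was the single member that passed, as lower in laser cells. Among all 5871 genes 2.15% passed as lower and 14.4% as higher, and 1.23% were lower by at least 2-fold. Its RPKM was 46.0, 37.5 and 35.8 in the control libraries and 25.6, 11.9 and 5.22 in the laser libraries, so each laser value was below each control value. The log2 fold change was -1.66 with an SE of 0.44 (limma adjusted p = 0.0262), and with the block the adjusted p was 8.07e-06. The blocked fit at this time draws its estimate of spread mostly from other genes. Its p therefore does not measure how closely the cultures agreed on this gene. Laser cells held 0.555, 0.316 and 0.146 of the control value of the same culture. The call was lost without control replicate 1 (adjusted p = 0.105), without control replicate 2 (0.0580), without laser replicate 2 (0.0641) and with the median-ratio rescaling (log2 fold change -1.82, adjusted p = 0.0631). The length trend of the laser libraries was 0.66, -0.07 and -0.60, which falls in the same order as their *ANB1* values, and its part was not tested. *HYP2*, which has the same coding length, had 2917, 3051 and 2953 in the same libraries and a log2 fold change of -0.13 (adjusted p = 0.778).

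*ANB1* is known for repression in air by the DNA-binding protein Rox1, which recognises a core of ATTGTT. The 500 bases before its start codon held the core at the following places on the strand of the gene (R64, motif in capitals, both strands searched), shown since this was the single member to pass between treatments.
chrX:525676-525705: tttcgtttttccATTGTTcgttcgttgcct
chrX:525645-525674: ttttttcgccctATTGTTctcgagcctaaa
chrX:525578-525607: gtttcctattccATTGTTctctttggtaaa
chrX:525557-525586: tttggtaaactcATTGTTgtcggaactcag
At least 1 match was found in 48.9% of 6025 promoters of that length, at least 3 in 3.07%, and at least 1 in 17 members, so a match by itself is common. The longer form ATTGTTCTC was found in 1.13% of promoters and in 2 members. These matches describe the sequence only.

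With the block 3 members were higher and 4 lower at T30, *ANB1* among them, with backgrounds of 24% and 5.91%. *HEF3*, *EAP1* (log2 fold change 0.59, blocked adjusted p = 0.0248) and *HCR1* (0.55, 0.00683) were higher. *TEF4* (-0.52, 0.0221), *SUP45* (-0.47, 0.0296) and *TIF1* (-0.45, 0.0236) were lower. The sum of *TIF1* and its near-identical copy *TIF2* was not called at this time (blocked adjusted p = 0.195). *HEF3* had RPKM values of 3.35, 2.31 and 3.05 in control cells and 4.27, 10.9 and 11.7 in laser cells, and the lowest laser value was above the highest control value. Its log2 fold change was 1.26 with an SE of 0.41 (limma adjusted p = 0.0603, blocked 0.0107). Without laser replicate 1, the library with the strongest length trend at this time, it was 1.66 (adjusted p = 0.00274). Leaving out that library gave 5 higher members (*EAP1*, *FUN12*, *HCR1*, *HEF3*, *TIF5*) and 3 lower ones (*ANB1*, *CAF20*, *TIF11*), while all genes passing rose from 844 to 1580 higher and from 126 to 281 lower. The median log2 fold change of the members at T30 was -0.12, that of all genes was 0.15, and 37 members lay below the latter. The rescaling put 1 member higher and 4 lower, beside 13.8% and 7.95% of all genes, and with the block as well 1 and 6, beside 17.5% and 10.9%. At this time 24.4% of all genes lay wholly above and 7.29% wholly below the control libraries, with *TIF35*, *HCR1* and *HEF3* above and *TIF1*, *TEF4*, *HYP2* and *ANB1* below among the members.

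At T0 and at T60 no member passed limma. At T0 0.017% of 5884 genes passed as higher and 0% as lower, and at T60 0.187% and 0.051% of 5877 did. At an unadjusted p under 0.05, 1 member was lower and none higher at T0, the former *DED1*, beside 1.73% and 2.89% of all genes, and none passed at T60, beside 1.99% lower and 6.3% higher. Nor did any pass at T60 with the block, where 9.36% of all genes were higher and 3.62% lower, or with the rescaling, where 0.527% and 0.476% were, or with both, where 3.74% and 2.94% were. *DED1*, for a helicase that opens structured leaders during scanning, had RPKM values of 358, 281 and 284 in control cells and 251, 207 and 188 in laser cells at T0. Every laser value was below the lowest control value, with a log2 fold change of -0.51 (limma adjusted p = 0.795). With the block its adjusted p was 0.0485, beside 1.04% of all genes higher and 0.476% lower, but it did not pass with the block and the rescaling together, when 1.27% of all genes were higher and 0.561% lower. Also wholly below control at T0 were *TIF4631*, *GCD2*, *YEF3* and *HYP2*, and wholly above were *GCN3* and *GCN4*, where 5.12% and 5.42% of all genes did so. At T60 no member lay wholly above or below, against 9.68% and 3.16% of all genes. The median log2 fold change of the members was -0.02 at T0 and 0.02 at T60, and the latter turned to -0.08 with the rescaling.

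The low-use copies of eIF5A and eEF3 were then set against their main copies, which leaves library scaling out of the comparison. *ANB1* as a percent of *ANB1* plus *HYP2* averaged 0.833%, 0.387%, 1.21% and 1.09% in control cells at T0, T15, T30 and T60, and 1.22%, 0.247%, 0.478% and 1.33% in laser cells. The mean share was lower at T15 than at T0 in both treatments, and at T30 it was above its T0 mean in control cells and below it in laser cells. *HEF3* as a percent of *HEF3* plus *YEF3* averaged 0.384%, 0.220%, 0.118% and 0.122% in control cells and 0.412%, 0.547%, 0.402% and 0.248% in laser cells. The exact two-sided permutation p over libraries for laser against control was 0.1, 0.2, 0.1 and 0.6 for the *ANB1* share and 0.7, 0.1, 0.1 and 0.1 for the *HEF3* share at the same times. With 3 libraries against 3 the smallest p possible is 0.1, so none of these could pass.

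*ANB1* by library shows this course. Control cells had RPKM values of 46.0, 36.4 and 22.5 at T0, 10.4, 24.3 and 14.7 at T15, and 42.3, 35.5 and 23.0 at T60, beside the T30 values above. Laser cells had 43.3, 40.6 and 29.9 at T0, 7.79, 13.6 and 6.01 at T15, and 49.4, 39.1 and 23.0 at T60. The treatments overlapped at T0, T15 and T60. In control cells the log2 change from T0 to T15 was -1.06 (limma adjusted p = 0.0627, blocked 0.00841). *HEF3* had 4.34, 8.15 and 7.38 in control cells at T0, 6.74, 3.99 and 5.92 at T15, and 1.77, 2.03 and 4.36 at T60. In laser cells it had 4.17, 6.56 and 8.12 at T0, 7.88, 11.2 and 9.72 at T15, and 4.19, 5.14 and 6.40 at T60. It was higher in the laser portion of every culture at T15, T30 and T60, and the log2 fold changes at T15 and T60 were 0.70 (adjusted p = 0.120) and 0.80 (0.667).

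**Figure D4:**
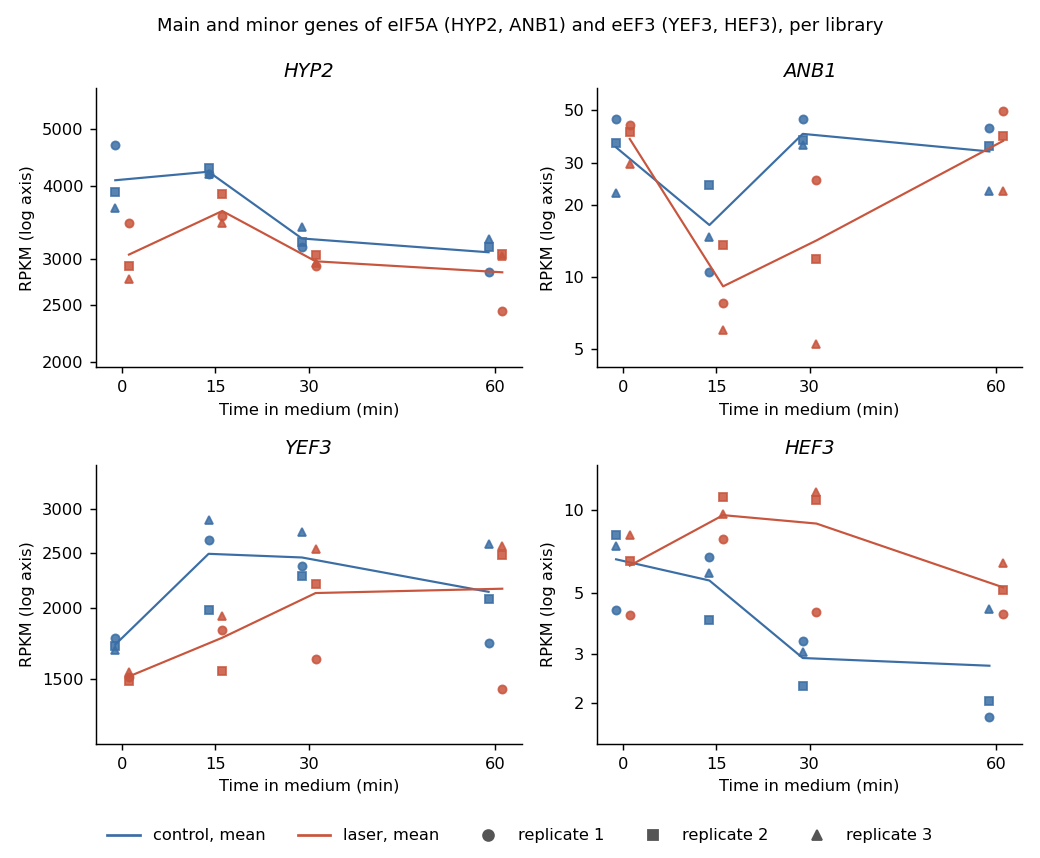
RPKM on a log axis against time in min for the eIF5A genes *HYP2* and *ANB1* and the eEF3 genes *YEF3* and *HEF3*, with a point per library and lines through the group means. *ANB1* was low at T15 in both treatments, and at T30 the control libraries, at 35.8 to 46.0, overlapped their T0 range while the laser libraries lay between 5.22 and 25.6. *HEF3* laser libraries at T30 lay between 4.27 and 11.7, above the control libraries.

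The near-identical copies were compared as sums. *TIF1* plus *TIF2* had RPKM values of 1872, 1673 and 2164 in control cells and 1518, 1378 and 1776 in laser cells at T15, which overlap, a log2 fold change of -0.29 (limma adjusted p = 0.377). *TEF1* plus *TEF2* had 18362, 15022 and 19245 in control and 14713, 13401 and 16047 in laser cells, a log2 fold change of -0.25 (0.679). *EFT1* plus *EFT2* had 2189, 1701 and 2492 in control and 1556, 1380 and 1741 in laser cells, a log2 fold change of -0.44 (0.197). In each pair replicate 2 was lowest in both treatments, and the groups overlapped, but the laser portion was the lower in every culture. Laser cells held 0.811, 0.824 and 0.821 of the control value for eIF4A, 0.801, 0.892 and 0.834 for eEF1A and 0.711, 0.811 and 0.699 for eEF2. At T30 the log2 fold changes of the sums were -0.34, -0.25 and -0.35, and at T0 and T60 they lay between -0.10 and 0.16. No sum passed at any time without the block. With it the sums for eIF4A (blocked adjusted p = 0.0281) and eEF2 (0.00799) were lower at T15, and that for eEF1A was not called (0.106). With the rescaling the eEF2 sum was lower at T15 (log2 fold change -0.76, adjusted p = 0.0331), and with both choices all 3 sums were (0.00114, 0.00339 and 0.000617 for eIF4A, eEF1A and eEF2). None passed at the other times under any of these settings. The less abundant copy took 13.6% to 19.3% of the eIF4A sum as *TIF1*, 8.88% to 14.6% of the eEF1A sum as *TEF1* and 7.56% to 12.4% of the eEF2 sum as *EFT1*.

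The change since T0 was tested within each treatment, in a single limma fit of the 24 libraries, to show what the members did after transfer to fresh medium. In control cells at T15, *EFB1* and *SUI2* (eIF2α) rose and no member fell, where 4.93% of 6146 genes rose and 24.6% fell. At T30 *EFB1*, *TEF4* and *GCN1* rose and *EAP1*, *TIF4632*, *HEF3* and *CAM1* fell, against 8.15% and 34.3% of all genes. At T60 *EFB1*, *TEF4*, *TIF11* and *GCN4* rose and *EAP1*, *HEF3*, *DED1* and *CAM1* fell, against 6.92% and 37.3%. The members' median log2 change was 0.21, 0.23 and 0.07, while that of all genes was -0.33, -0.38 and -0.44, and 42, 41 and 40 members lay above it.

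In laser cells at T15 only *ANB1* passed, as lower, where 5.4% of all genes rose and 6.74% fell. Its log2 change was -1.99 with an SE of 0.42 (limma adjusted p = 0.00256), and all laser libraries at T15 lay below those at T0. At T30 *EFB1*, *GCD1* (eIF2Bγ) and *TIF35* (eIF3g) rose and *ANB1*, *TIF4632* and *CAM1* fell, against 7.7% and 18.7%. At T60 *EFB1*, *TIF11* and *TEF4* rose and *TIF4632*, *EAP1* and *CAM1* fell, against 9.13% and 32%. The members' median was 0.09, 0.16 and 0.12, that of all genes -0.04, -0.20 and -0.33, and 31, 41 and 42 members lay above it.

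*EFB1* had the highest log2 change of the members in each of the 6 comparisons and passed in 5 of them. In laser cells at T15 it did not pass, and its change of 0.79 (adjusted p = 0.122) was close to that of *GCD1*, 0.78 (0.0521). Its RPKM in control cells was 3738, 1980 and 1874 at T0, 5400, 5550 and 3393 at T15, 5995, 5728 and 4433 at T30, and 7188, 5898 and 4297 at T60. In laser cells it was 2996, 2000 and 1902, then 4712, 4471 and 2825, then 6175, 4166 and 3112, and at last 6798, 4507 and 3941. Replicate 1 was highest at T0 in both treatments. The length trend was 0.50 and 0.33 in those libraries, against -0.38 to -0.08 in the other T0 libraries, and its part in the level of this short gene was not tested. The log2 change at T60 was 1.24 in control cells (adjusted p = 0.0040) and 1.13 in laser cells (0.00814), each with an SE of 0.32. The genes for eEF1Bγ, which holds the same exchange complex together, moved in opposite directions in the deposited scaling. With the rescaling the change of *CAM1* in control cells was no longer called at T60 (-0.03, adjusted p = 0.830), while its fall in laser cells was (-0.40, 0.00277). *TEF4* went from a mean RPKM of 860 ± 60.5 to 1351 ± 253 in control cells from T0 to T60 (SD, n = 3), a log2 change of 0.64 (adjusted p = 0.0106), and from 852 ± 27.3 to 1281 ± 311 in laser cells (0.56, 0.0243). *CAM1* had 344, 403 and 433 in control cells at T0 and 222, 278 and 334 at T60, all lower, a log2 change of -0.51 (0.0216). Its laser values were 429, 435 and 478 at T0 and 203, 280 and 300 at T60, with a log2 change of -0.80 (0.00106).

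Of the other members that fell, *EAP1*, *TIF4632* and *DED1* act at the cap or in scanning. *EAP1* had 54.3, 78.7 and 84.2 in control cells at T0 and 22.4, 33.8 and 49.2 at T60, every T60 value being below the lowest T0 value, a log2 change of -1.07 (adjusted p = 0.00514). In laser cells it had 67.8, 78.3 and 78.4 at T0, 61.6, 60.6 and 72.7 at T15 and 24.8, 40.7 and 52.0 at T60, a log2 change at T60 of -0.98 (0.0101). *TIF4632* had 30.6, 51.9 and 62.5 in control cells at T0 and 20.4, 20.5 and 31.7 at T30, which overlap, a log2 change of -0.94 (0.03). In laser cells it had 40.5, 56.0 and 66.3 at T0 and 14.8, 29.0 and 31.3 at T60, all lower, a log2 change of -1.13 (0.0112). *TIF4631*, for the more abundant eIF4G, passed in neither treatment with all libraries, no block and the deposited scaling. It was higher in control cells at T15 with the block (log2 change 0.50, blocked adjusted p = 0.0320), in laser cells at T30 and T60 without replicate 1, and in all 6 comparisons with the rescaling, by 0.41 to 0.83. *DED1* had 358, 281 and 284 in control cells at T0 and 161, 183 and 252 at T60, a log2 change of -0.65 (0.0168).

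*SUI2* had 295, 277 and 241 in control cells at T0 and 294, 383 and 409 at T15, which overlap in replicate 1, a log2 change of 0.41 (adjusted p = 0.0361). *GCD1* had 74.4, 64.8 and 78.1 in laser cells at T0 and 80.8, 128 and 165 at T30, a log2 change of 0.72 (0.0448), with replicate 1 the least changed. *GCN1* went from 17.5 ± 0.9 to 30.0 ± 3.1 in control cells from T0 to T30 (SD, n = 3), a log2 change of 0.74 (0.00702).

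**Figure D5:**
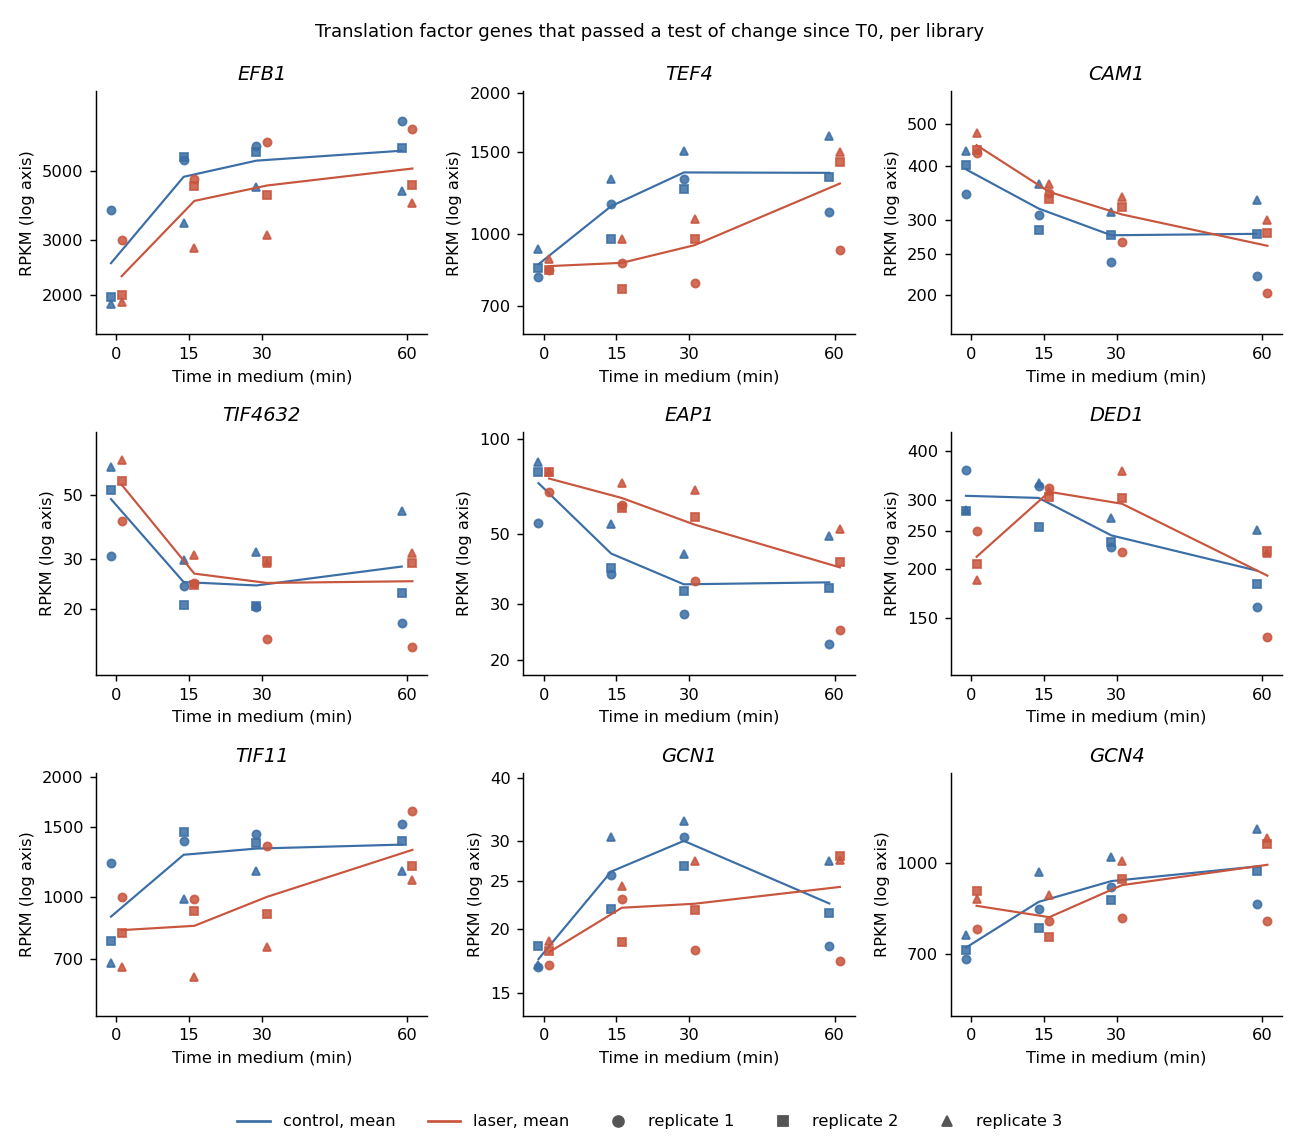
RPKM on a log axis against time in min for *EFB1*, *TEF4*, *CAM1*, *TIF4632*, *EAP1*, *DED1*, *TIF11*, *GCN1* and *GCN4*, with a point per library and lines through the means of 3 control or 3 laser libraries. *EFB1* rose and *CAM1* fell from T0 to T60 in both treatments, and *EAP1* laser libraries at T15, at 60.6 to 72.7, stayed above the control libraries.

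These counts since T0 changed with the cultures included and with the scaling. Leaving out replicate 2 in all groups left no member passing in any of the 6 comparisons, while 13 to 114 genes still rose and 43 to 858 fell among all genes tested. Leaving out replicate 1 gave 4, 5 and 4 higher and 2, 4 and 4 lower members in control cells, and 2, 7 and 8 higher and 2, 2 and 3 lower in laser cells. Among all genes 7.98%, 10.2% and 9.13% were then higher and 28.9%, 38% and 37.1% lower in control cells, and 6.18%, 10.7% and 11.1% higher and 7.2%, 15% and 26% lower in laser cells. Without replicate 3 *EFB1* still rose at all 3 times in control cells and at T30 and T60 in laser cells. With the block 11, 12 and 7 members rose and 4, 5 and 6 fell in control cells, and 3, 6 and 9 rose and 3, 4 and 3 fell in laser cells, with backgrounds of 9.27%, 11.9% and 9.7% higher and 37.9%, 43.7% and 46.9% lower in control cells, and 9.79%, 13.6% and 12.9% higher and 13.4%, 30.4% and 41.6% lower in laser cells.

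The rescaling moved more members to the higher side. In control cells it put 30, 33 and 30 members higher, beside 13.7%, 20.5% and 20.6% of all genes, and 0, 1 and 2 lower, beside 16.3%, 23.7% and 23%. Among laser cells 7, 20 and 30 were higher, beside 10.4%, 15.8% and 21.9%, and 3, 2 and 3 lower, beside 10%, 16.6% and 23.3%. Higher genes made up 16.7%, 19.2% and 15.6% of all calls in control cells as deposited and 45.7%, 46.4% and 47.3% when rescaled, and 44.5%, 29.2% and 22.2% against 51.0%, 48.9% and 48.4% in laser cells. With the block and the rescaling together 37, 37 and 34 members were higher in control cells and 11, 26 and 36 in laser cells, beside 19.6%, 25.5% and 25.8% and 14.5%, 22.7% and 27.5% of all genes, while 21.6%, 27.9% and 26.9% and 14%, 22.3% and 27.2% were lower. With the rescaling alone the control falls of *TIF4632* (log2 change -0.55, adjusted p = 0.0634) and *HEF3* (-0.61, 0.0741) at T30, of *CAM1* at T30 (-0.11, 0.406) and T60 (-0.03, 0.830) and of *DED1* at T60 (-0.17, 0.397) no longer passed, nor did the T30 changes of *EFB1* (1.15, 0.0604) and *ANB1* (-1.36, 0.0568) in laser cells.

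Whether the laser effect itself changed from a time to the next was tested by interaction terms in the same fit. No member passed in limma from T0 to T15, from T15 to T30 or from T30 to T60, where 4.6%, 0.195% and 0.26% of 6146 genes passed as higher and 0.293%, 0.342% and 2.51% as lower. At an unadjusted p under 0.05 there were 0, 0 and 1 members higher and 0 lower, beside 17.1%, 2.21% and 2.83% of all genes higher and 2.41%, 3.47% and 9.79% lower. With the block, *ANB1* passed from T30 to T60, where its laser effect rose by 1.78 on the log2 scale (blocked adjusted p = 0.0121, limma without the block 0.139), beside 1.32% of all genes higher and 7.83% lower. The rescaling put 8 members lower from T0 to T15 and 2 higher from T30 to T60, beside 2.77% and 1.58% of all genes, while 4.9% were higher in the former and 3.77% lower in the latter. From T15 to T30 no member passed with the block (0.797% of all genes higher, 0.911% lower), the rescaling (0.553%, 0.635%) or both (1.42%, 1.51%). From T0 to T15 none passed with the block (16.2%, 2.83%). With both 14 members were lower from T0 to T15 (10.4%, 8.14%) and 5 higher from T30 to T60 (3.69%, 8.18%).

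*GCN4* was an abundant transcript whose level ranged from 687 to 1143 over the 24 libraries. Its RPKM was 687, 712 and 754 in control cells at T0, 836, 776 and 965 at T15, 910, 864 and 1023 at T30, and 851, 968 and 1143 at T60. In laser cells it was 774, 895 and 869, then 796, 748 and 883, then 806, 939 and 1008, and at last 797, 1079 and 1106. The laser libraries lay above the control libraries at T0 (log2 fold change 0.24, adjusted p = 1) and overlapped them later. The control change at T60 was 0.45 (adjusted p = 0.0280). Gcn4 is regulated mostly in translation, which RNA levels do not measure. Among 37 genes of amino acid synthesis known as its targets, 11 were higher and 3 lower in laser cells at T15, beside 22.6% and 4.26% of all genes, with a median log2 fold change of 0.41 against 0.29 for all genes. With the block 23 were higher and 5 lower, beside 41.2% and 12.5% of all genes. The rescaling gave 9 and 8, beside 15% and 13%, with a median of 0.10. *ARG3* (3.92) and *ARG1* (1.69), of arginine synthesis, were higher and *ILV3* (-1.03), of branched-chain amino acid synthesis, was lower. At T30 3 were higher and 5 lower, beside 14.4% and 2.15% of all genes, with a median of 0.07. The rescaling gave 4 higher and 12 lower there, beside 13.8% and 7.95% of all genes, with a median of -0.11. None of 36 passed at T60 without the block, beside 0.187% of all genes higher and 0.051% lower. With the block 4 were higher and 2 lower there, beside 9.36% and 3.62%.

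The other genes of the translation machinery are given by list, to be read against 22.6% higher and 4.26% lower among all genes at T15 and 14.4% and 2.15% at T30, or 41.2% and 12.5% and 24% and 5.91% with the block, and 15% and 13% and 13.8% and 7.95% with the rescaling. Of 29 further translation factors and modifiers of factors, 1 was higher and 3 lower at T15 and again at T30. At T15 the block gave 2 higher and 13 lower and the rescaling 1 and 14, and at T30 they gave 2 and 4, and 1 and 5. *DBP1*, the paralog of *DED1*, was higher by log2 fold changes of 1.87 (adjusted p = 0.00124) and 2.32 (0.00142), while *LIA1*, for the hydroxylase that matures eIF5A, was lower by -0.89 (0.00487) and -0.74 (0.0141), and *RLI1*, for the ribosome recycling factor, by -0.87 (0.0137) and -0.89 (0.0276). Of 19 genes for ribosome rescue, quality control and repression, 5 were higher at T15, 3 at T30 and 1 at T60, and none was lower without the block or the rescaling. The gene higher at T60, where 0.187% of all genes were higher and 0.051% lower, was *LSO1*, which the paper places in the iron regulon. At T15 the block gave 9 higher and 1 lower, and the rescaling 2 and 2 with a median of -0.02. At T30 they gave 7 and 5 higher and none lower. Of 9 mitochondrial translation factor genes, 4 were higher at T15 and 1 at T30, *MEF2*, by 2.35. The block gave 7 and 3 and the rescaling 3 and 1 higher. None of 20 cytosolic aminoacyl-tRNA synthetase genes passed at any time without the block or the rescaling, with medians of -0.28 at T15 and at T30. With the block 11 were lower at T15 and 4 at T30, and with the rescaling 16 and 12, and none was higher. Of the 137 ribosomal protein genes 33 were lower at T15, with a median of -0.85, and none passed at T30, with a median of -0.48. With the block the ribosomal protein genes gave 1 higher and 132 lower at T15 and 10 lower at T30, and with the rescaling 34 were lower at T15 and none at T30.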

How the data were processed

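RNA from 24 libraries was made with a stranded poly(A) kit, aligned to the S288C reference with SeqMan NGen and quantified in ArrayStar, according to the study's methods. How strand was used in counting is not given in the sources used here. The values are RPKM deposited by the authors, in 4 tables of 1 time each, with 0.021 for a gene without reads. The columns of the authors' own p-values, t scores and fold changes were not used. Near-identical copies share reads, as described above.

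Laser and control were compared at each time by limma 3.58.1 in R 4.3.3 with a variance trend on log2(RPKM + 1), for genes that reached 1 RPKM in 3 or more of 6 libraries. Fold changes on this scale understate the change of low genes. Changes since T0 and interactions were contrasts in a fit of all 8 groups. A gene passed at a Benjamini-Hochberg adjusted p under 0.05. Depth was read from RPKM steps, where 92.4% to 96.3% of low values were whole reads within 0.08. These are relative values from RPKM, so no count test was run. Names of 6109 genes were matched to R64. The procedure was also run on simulated data with independent noise for each gene and library. These held no culture pairing, length trend or shift in scaling, so they cannot show how those affect the calls.

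Replicate numbers were read as cultures, since the methods divide each culture into both portions. Deviations from group means of same-numbered laser and control libraries correlated with r of 0.45, 0.02 and 0.31 at T0, 0.18, 0.29 and 0.41 at T15, 0.23, 0.02 and 0.43 at T30, and 0.47, -0.02 and 0.46 at T60. The unpaired fit follows the study, and the blocked value is printed where it changes a call. Other alternatives were pseudocounts of 0.1 and 5, no filter, median-ratio rescaling, summed copies and leaving out replicates.

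Members and lists were chosen with earlier results of these data known. All 45 members could be named. Values by library are given for members passing between treatments (up to 6 per time), for up to 4 with the largest passing change since T0, for the duplicate pairs and for *GCN4*. *DED1* at T0 and group means of other members were added after their values were seen. From each other list up to 3 genes with the smallest p could be named, less a result that is not reported here, and ribosomal protein genes are given as counts and medians.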

Additional observations from a re-analysis of the deposited data

Results flagged for a closer look

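The following laser effects differed between neighbouring times by the interaction term in limma over all 24 libraries, with each value the later log2 fold change of laser against control less the earlier. Among the members, the effect on *ANB1* rose by 1.78 from T30 to T60 with the replicate block only (blocked adjusted p = 0.0121, without the block 0.139). From T0 to T15 the effect on *DBP1*, the paralog of *DED1*, rose by 1.99 (adjusted p = 0.0231), where its log2 change in control cells was -1.71. In the list for ribosome rescue, quality control and repression, the effect on *LSO1*, which the paper places in the iron regulon, rose by 5.74 (1.05e-05). The effect on *TMA10* rose by 3.86 (0.000855). Its transcript fell from T0 to T15 in both treatments, with log2 changes of -5.38 in control cells and -1.52 in laser cells. The effect on *AIM23*, for mitochondrial initiation factor 3, rose by 1.60 (0.00652), where its log2 change in control cells was -1.30. Among Gcn4 targets of arginine synthesis, the effect rose by 2.38 for *ARG3* (0.0182) and by 1.54 for *ARG1* (0.0494). From T15 to T30 the effect on *HIS1*, of histidine synthesis, was -1.06 (0.0038). From T30 to T60 it was -2.70 for *TMA10* (0.0178) and -1.96 for *MEF2*, for a mitochondrial elongation factor (0.0321). These terms share libraries between neighbouring intervals.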

How the results depend on the processing

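A pseudocount of 0.1 and no filter kept every count of members within 1.5 times. A pseudocount of 5 and summed copies were run only for laser against control at each time, and kept those counts within the same limit. The replicate block, the rescaling and both together, a pairing of choices made after seeing the data, did not keep the counts within it. The block gave 1 lower member at T0, 2 higher and 13 lower at T15, 3 and 4 at T30, and 1 higher in the laser effect from T30 to T60. Since T0 it gave 11, 12 and 7 higher and 4 lower at T15 in control cells, and 3, 6 and 9 higher and 3 lower at T15 in laser cells. The rescaling gave 19 lower at T15, and 1 higher and 4 lower at T30. Since T0 it gave 30, 33 and 30 higher, and 1 and 2 lower at T30 and T60, in control cells, and 7, 20 and 30 higher and 3 lower at T15 in laser cells. In the laser effect it gave 8 lower from T0 to T15 and 2 higher from T30 to T60. Both together gave 36 lower at T15, 1 higher and 6 lower at T30, 37, 37 and 34 higher and 2, 2 and 2 lower since T0 in control cells, 11, 26 and 36 higher and 3 lower at T15 in laser cells, and 14 lower and 5 higher in those laser effects. With either form of rescaling the control change of *CAM1* at T15 turned to 0.0243 and that of *HYP2* to 0.0811 at T30 and 0.0790 at T60, none of which had passed without the block. The block ended no call made without it. Of the copy sums, which also got these settings after the data were seen, the eIF4A and eEF2 sums at T15 passed with the block (-0.29 and -0.44), the eEF2 sum with the rescaling (-0.76), and the eIF4A, eEF1A and eEF2 sums with both (-0.61, -0.57 and -0.76).

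Leaving out a replicate gave 0 to 1 higher and 0 to 1 lower at T15 and 0 to 5 and 0 to 3 at T30, with 0 at T0 and T60 and in every laser effect. Since T0 the ranges were 0 to 4 and 0 to 2, 0 to 5 and 0 to 4, and 0 to 4 and 0 to 5 in control cells, and 0 to 2 and 0 to 2, 0 to 7 and 0 to 2, and 0 to 8 and 0 to 3 in laser cells. Over all genes the calls since T0 ranged as well, across the 3 comparisons from 0.213% to 10.2% higher and 3.35% to 38% lower in control cells, and from 0.443% to 11.1% and 0.706% to 30.8% in laser cells. Between treatments they ranged at T15 from 12.5% to 28.9% higher and 1.51% to 4.68% lower, and at T30 from 7.57% to 27.2% and 0.892% to 4.84%. The *ANB1* share, laser less control in percentage points, ranged from 0.279 to 0.470, -0.209 to -0.0515, -0.931 to -0.585 and -0.0859 to 0.528 at T0 to T60, and the *HEF3* share from -0.0416 to 0.0966, 0.243 to 0.385, 0.241 to 0.355 and 0.105 to 0.148. Where a group was left with 2 libraries its spread was pooled with the others.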
